A study of Mus musculus with 139 samples.

Results

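The genes described here are interferon-stimulated genes, a module of 39 genes listed by symbol, in whole lung of mice given carbon nanotubes or asbestos. A gene was measured where a feature of the array is paired with its symbol alone, and the feature with the highest mean was taken. Of the 39 genes 36 were measured, out of 22180 genes in all. Oas1a shares its feature with Oas1g, and Gbp2 with Gbp2b, so neither was measured alone, and Ifi44 is not analysed here. Every measured member has 1 feature, so no member offered a choice. Within the module 9 genes are called type I-like (Ifit1, Ifit2, Ifit3, Oas2, Oas3, Oasl1, Oasl2, Mx1, Mx2) and 6 gamma-like (Cxcl9, Gbp3, Gbp5, Gbp7, Psmb8, Psmb9). The others are regulators, sensors, the Isg15 system, immunity-related GTPases, the chemokine Cxcl10, the peptide transporter Tap1 and further effectors.

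Male mice, of a strain written C57BL/J6 in the labels and 7 weeks old when obtained, were dosed once by pharyngeal aspiration: liquid pipetted onto the back of the tongue was drawn into the lung by breathing. The liquid held dispersion medium (DM, the vehicle, a buffered saline with glucose, mouse serum albumin and a phospholipid), 1, 10, 40 or 80 µg of MWCNT (multi-walled carbon nanotubes) in DM, or 120 µg of crocidolite, a fibrous amphibole asbestos, in DM. Lungs were collected at 1, 6 and 12 months, so that 18 groups were formed, on 139 arrays with 1 mouse arrayed in duplicate. There were 8 mice in a group, except 5 with crocidolite at 1 month, 7 with crocidolite at 12 months and 6 with 1 µg MWCNT at 12 months. The study asked how inflammation, fibrosis and lung gene expression follow the MWCNT dose. Crocidolite was given at 1 dose, higher by mass than any MWCNT dose, so agent and dose cannot be told apart in its comparison with MWCNT.

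Type I interferons signal through the receptor chains Ifnar1 and Ifnar2 to a complex that holds Stat2 and Irf9, which binds interferon-stimulated response elements and induces antiviral genes such as the Ifit, Oas and Mx families. Interferon gamma, a product of natural killer and T cells, signals through Ifngr1 and Ifngr2, acts at gamma-activated sites and induces guanylate-binding proteins, immunity-related GTPases, immunoproteasome subunits and the chemokine Cxcl9. The programmes overlap widely, and Cxcl10, Irf1 and Tap1 respond to either ligand.

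Values are deposited log2 intensities, and differences are log2 differences of group means with the standard error (SE) of a linear model fitted over all genes. A gene is called higher or lower where its Benjamini-Hochberg adjusted p from limma is under 0.05, two-sided. Shares of all genes called are at this adjusted p unless stated, so counts at an unadjusted p are not to be set against them. A level of one gene is not set against that of another. Lung epithelial genes were high throughout, with Sftpc, a surfactant protein, at 12.3 to 12.7 and Scgb1a1, a club cell protein, at 12.2 to 12.8 over all mice. The 10 arrays of lowest correlation with the others (medians 0.955 to 0.97) include crocidolite replicates 4 and 5 and DM replicate 3 of 1 month. A further split of unknown meaning is the term replacement in part of the titles, carried by 3 of 5 crocidolite and 4 of 8 DM mice at 1 month, and 5 of 7 and 3 of 8 at 12 months. Array intensities have no true zero, so no cell marker is at 0. In whole tissue, fewer cells of a type and less RNA per cell cannot be told apart.

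Promoters are shown for the members called in most comparisons that have an entry in the RefSeq table of build GRCm38.p6, as the 250 bases before the annotated start on the gene's strand. Capitals mark the core of the interferon-stimulated response element, GAAA, any 2 bases and GAAA again, or of the gamma-activated site, TTCNNNGAA, searched on both strands. Cxcl9 (chr5:92328080-92328329, minus strand) and Cxcl10 (chr5:92348890-92349139, minus strand) are called in 3 comparisons each. Gbp7 (chr3:142530086-142530335, plus strand) and Ifit2 (chr19:34550444-34550693, plus strand) are called in 1 comparison each. Gbp7 had the lowest adjusted p among such members with an entry. Gbp3 came next, but Ifit2 was printed in its place so that a type I-like gene is shown. Ifit2 has 2 windows in the table, of which the one with a match is printed.
Cxcl9: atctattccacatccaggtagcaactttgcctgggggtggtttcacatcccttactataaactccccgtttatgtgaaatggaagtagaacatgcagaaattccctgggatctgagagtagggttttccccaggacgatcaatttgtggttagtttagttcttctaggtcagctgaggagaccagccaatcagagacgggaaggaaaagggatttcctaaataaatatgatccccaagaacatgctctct
Cxcl10: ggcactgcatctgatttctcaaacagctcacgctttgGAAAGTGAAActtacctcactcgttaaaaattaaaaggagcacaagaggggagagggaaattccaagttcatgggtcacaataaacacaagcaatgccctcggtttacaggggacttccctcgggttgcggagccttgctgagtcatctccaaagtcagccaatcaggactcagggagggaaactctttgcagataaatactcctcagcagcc
Gbp7: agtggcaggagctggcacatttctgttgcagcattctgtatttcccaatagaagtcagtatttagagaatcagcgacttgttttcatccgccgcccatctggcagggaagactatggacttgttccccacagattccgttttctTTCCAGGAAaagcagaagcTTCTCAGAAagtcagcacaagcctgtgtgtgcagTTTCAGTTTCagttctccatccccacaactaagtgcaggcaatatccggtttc
Ifit2: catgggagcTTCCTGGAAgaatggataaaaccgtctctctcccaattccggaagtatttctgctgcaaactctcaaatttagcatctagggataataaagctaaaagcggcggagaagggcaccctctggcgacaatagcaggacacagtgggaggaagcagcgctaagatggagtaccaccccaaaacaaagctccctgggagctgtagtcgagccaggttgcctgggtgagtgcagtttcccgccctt
Cxcl10 holds the response element core, starting 213 bases before the start. Gbp7 holds that core on the opposite strand, 53 bases before the start, and 2 gamma-activated site cores at 106 and 87 bases. Ifit2 holds a gamma-activated site core at 241 bases, and neither set of letters is in the Cxcl9 window.

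Over the table's windows, which reach 250 bases before to 50 after the start, the response element core was in 16 of the 27 measured members with an entry (59.3%) and in 1079 of 27025 genes (3.99%). By class it was in 3 of 6 type I-like and 3 of 6 gamma-like genes, 2 of 2 sensors and 2 of 2 immunity-related GTPases. The gamma-activated site core was in 7 of 27 members (25.9%) against 9.55% of all genes, among them 3 of 6 gamma-like and 1 of 6 type I-like genes. The members hold these letters more often than genes at large, and the response element core in like share in both classes. Dhx58, Iigp1, Mx1, Mx2, Oas2, Parp14, Rtp4, Usp18 and Zbp1 have no entry.

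At 12 months after crocidolite, antiviral and chemokine genes of the module were higher than in DM lungs. Of the 36 members 7 were called higher and 0 lower, or 19.4%, where 4.31% of all genes were called higher and 6.47% in either direction. They were the chemokines Cxcl9 and Cxcl10, the type I-like genes Mx1, Oas2 and Oas3, the antiviral enzyme Rsad2 and the regulator Irf7. The members that were not called ran from Irf1, a regulator of both programmes (-0.25, adjusted p = 0.111), to Ifit1, an antiviral protein that binds foreign RNA (0.48, adjusted p = 0.0658). The median difference of the 36 members was 0.16, against -0.01 for all genes, and 26 of 36 differences were above 0.

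Cxcl9, a ligand of the chemokine receptor Cxcr3, stood at 4.57, 4.98 and 5.83 (lowest, median and highest) in the 8 DM mice and at 4.76, 6.22 and 8.36 in the 7 crocidolite mice. The difference was 1.36 ± 0.29 (SE), or 2.58-fold (adjusted p = 0.000503). The crocidolite mice were uneven: replicates 5 and 6 reached 7.99 and 8.36, replicates 3 and 4 lay at 6.24 and 6.22, and replicate 7 lay at 4.76, within the DM range. Cxcl10, another Cxcr3 ligand, ran from 3.47 to 4.45 (median 4.24) in DM and from 3.78 to 5.80 (median 4.68) with crocidolite, a difference of 0.69 ± 0.22 (adjusted p = 0.0338). The same crocidolite mice, replicates 5 and 6, were highest for Cxcl10 (5.56 and 5.80), and replicate 7 was lowest.

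Among the type I-like genes Mx1, a gene of the dynamin-like GTPase family, ran from 3.02 to 3.84 (median 3.26) in DM and from 3.87 to 4.42 (median 4.27) with crocidolite. The difference was 0.81 ± 0.17, or 1.75-fold (adjusted p = 0.000511), and 7 of 7 crocidolite mice were above every DM mouse. Oas2, which makes the oligoadenylates that activate RNase L, ran from 4.77 to 6.44 (median 5.90) in DM and kept to 6.37 to 6.73 (median 6.45) with crocidolite. That is a difference of 0.72 ± 0.19 (adjusted p = 0.00705), with 4 of 7 crocidolite mice above every DM mouse. Oas3, a larger enzyme of the same family, ran from 3.67 to 4.60 (median 4.06) in DM and from 4.26 to 4.95 (median 4.64) with crocidolite, 0.58 ± 0.17 higher (adjusted p = 0.0141). Some of these signals were dim. The DM mean of Mx1 (3.34) lay below the array medians of 4.01 to 4.34, and those of Oas3 (4.03) and Cxcl10 (4.12) within them. The crocidolite mice were closer together in Mx1, Oas2 and Oas3 (SD 0.23, 0.15 and 0.23) than in Cxcl9 (SD 1.33), and replicates 5 and 6 lay at 6.39 and 6.41 in Oas2, below the median.

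Irf7, the transcription factor that amplifies type I interferon production, ran from 6.21 to 7.03 (median 6.63) in DM and from 6.48 to 7.31 (median 7.18) with crocidolite. It was higher by 0.49 ± 0.13 (adjusted p = 0.00969), and 6 of 7 crocidolite mice were above every DM mouse, replicate 7 being the exception. Replicate 7 was also lowest in Cxcl9, Cxcl10, Oas2 and Rsad2, but not in Mx1 (4.33). Rsad2, the enzyme viperin, ran from 4.42 to 5.38 (median 4.74) in DM and from 4.71 to 5.92 (median 5.45) with crocidolite, 0.62 ± 0.19 higher (adjusted p = 0.0264). The sensor with the largest difference was Dhx58, the helicase LGP2, at 4.62 to 5.56 (median 5.23) in DM and 4.93 to 5.79 (median 5.70) with crocidolite, a difference of 0.35 ± 0.14 that did not pass (adjusted p = 0.142).

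**Figure D1:**
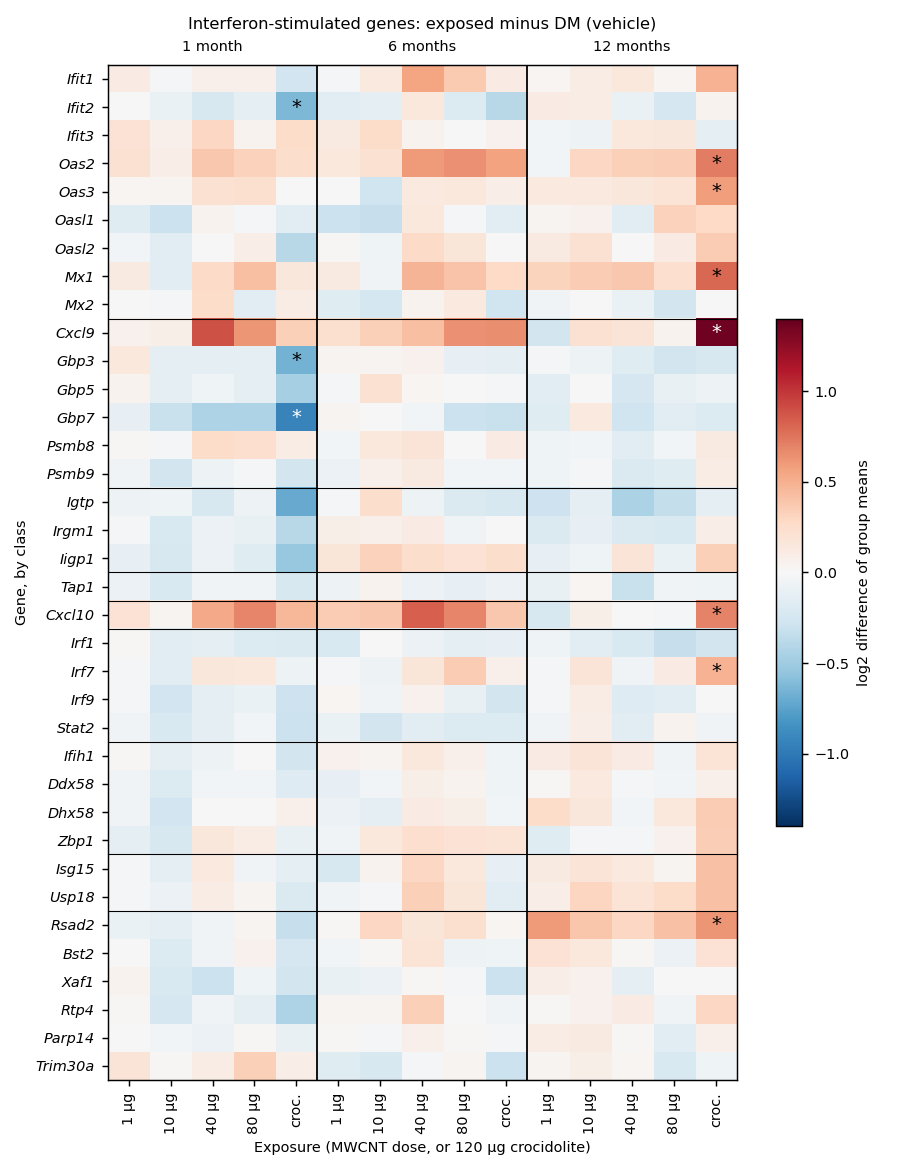
Log2 difference from DM of the same time for the 36 measured members (rows, by class) in 15 exposed groups (columns); red is higher, blue lower, and an asterisk marks an adjusted p under 0.05. Crocidolite at 1 month holds 3 asterisks on blue cells, crocidolite at 12 months 7 on red cells, and the other 13 columns hold none.

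By class, the counts at 12 months are of small sets, where 4.31% of all genes were called higher. With crocidolite 3 of 9 type I-like genes were higher, 8 of 9 differences were above 0, and the median was 0.36. Of the 6 gamma-like genes Cxcl9 alone was called, 3 of 6 differences were above 0 and the median was 0.02, while the immunity-related GTPases had 0 of 3 and the Isg15 system 0 of 2 called. Averaged per mouse and set against the DM mean, the type I-like genes were above 0 in 7 of 7 crocidolite mice (0.15 to 0.62), where DM mice ran from -0.27 to 0.17. The gamma-like genes without Cxcl9 ran from -0.35 to 0.37 in crocidolite mice and were above 0 in 2 of 7. With Cxcl9 included they ran from -0.33 to 0.86 and were above 0 in 5 of 7. Leaving out Cxcl9 takes away the only called gamma-like gene, while the called type I-like genes stay in their mean. The type I-like mean exceeded the gamma-like mean in 5 of 7 crocidolite mice (-0.44 to 0.56) with Cxcl9 and in 7 of 7 (0.04 to 0.66) without it. Without Cxcl9 it also did so in 7 of 8 mice of the 80 µg group, 8 of 8 at 40 µg, 6 of 8 at 10 µg, 6 of 6 at 1 µg and 4 of 8 in DM, so the excess was not seen with crocidolite alone. DM mice centre on 0 by construction and serve every exposed group. An offset of DM and an effect of exposure therefore cannot be told apart here. No test of the difference between classes was made, since the members were chosen with results in view.

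The 12-month calls rested unevenly on single mice. Mx1, Oas2, Oas3, Cxcl9 and Irf7 stayed called with each of the 15 mice left out in turn. Rsad2 was lost without crocidolite replicate 1, 2 or 6 or DM replicate 5 or 6 (adjusted p = 0.0516 to 0.0986), and Cxcl10 without crocidolite replicate 2, 5 or 6 or DM replicate 4, 5 or 8 (0.0558 to 0.173). Without crocidolite replicate 7, 12 members were called: the same 7, Oasl2, Dhx58, Zbp1 and Usp18 higher, and Irf1 lower. With only the DM and crocidolite groups in the fit, Mx1, Oas2, Oas3 and Rsad2 were called, and Cxcl9 (adjusted p = 0.0717), Irf7 (0.0565) and Cxcl10 (0.132) were not. Cxcl10 was also lost with array order in the model (0.0531). Split by the word replacement, Mx1 alone was called in the arrays without it (0.96, adjusted p = 0.0306) and Oas2 alone in those with it (0.95, adjusted p = 0.0484). All 7 differences were above 0 in both subsets, the smallest being Irf7 at 0.20 in arrays without the word.

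Some other genes of the pathway were called at 12 months, where 4.31% of all genes were called higher and 6.47% in either direction. Of 19 measured interferon genes themselves 0 were called by limma, and 0 reached an unadjusted p under 0.05. Group means were 1.17 to 1.48 for Ifnb1 and 2.64 to 3.17 for Ifng, below the array medians of 4.01 to 4.34, so a change in these ligands may not have been detectable. Ifng, the gamma interferon, stood at 2.73 to 3.45 in DM and 2.79 to 3.27 with crocidolite (difference 0.05 ± 0.14, adjusted p = 0.921), and Ifnb1 differed by 0.16 ± 0.13 (adjusted p = 0.62). Of the 6 receptor chains 0 were called, with Ifngr1 at -0.18 and Ifngr2 at 0.19. Of 24 other type I-like targets 2 were higher, Oas1g, a close copy of Oas1a (1.31 ± 0.32, adjusted p = 0.00279), and Lgals3bp, a secreted glycoprotein (0.72 ± 0.14). Oas1g and Oas1a are near-identical, so its value may hold signal of both. Of 26 other gamma-like targets Cd274, the checkpoint ligand PD-L1, was higher (0.48 ± 0.13). Socs3, a feedback inhibitor of cytokine signalling, was higher (0.65 ± 0.15) and Irf2, an antagonist of Irf1, lower (-0.26 ± 0.08).

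Cell-type genes moved in the same lungs, where 4.31% of all genes were called higher and 6.47% in either direction. Macrophage genes were higher in 9 of 10 cases, their mean running from 7.73 to 8.54 with crocidolite against 6.07 to 6.29 in DM. Natural killer and T cell genes were lower in 3 of 14 cases (Klrb1c, Gzma, Cd8a), with a mean of 4.78 to 5.22 against 4.98 to 5.53. Genes of plasmacytoid dendritic cells, a list that holds the member Bst2, had 0 of 8 called and endothelial genes 5 of 8 lower. Replicate 7 had the lowest macrophage mean (7.73) and the lowest natural killer and T cell mean (4.78) of its group. The part of these cells in the members' values was not tested.

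**Figure D2:**
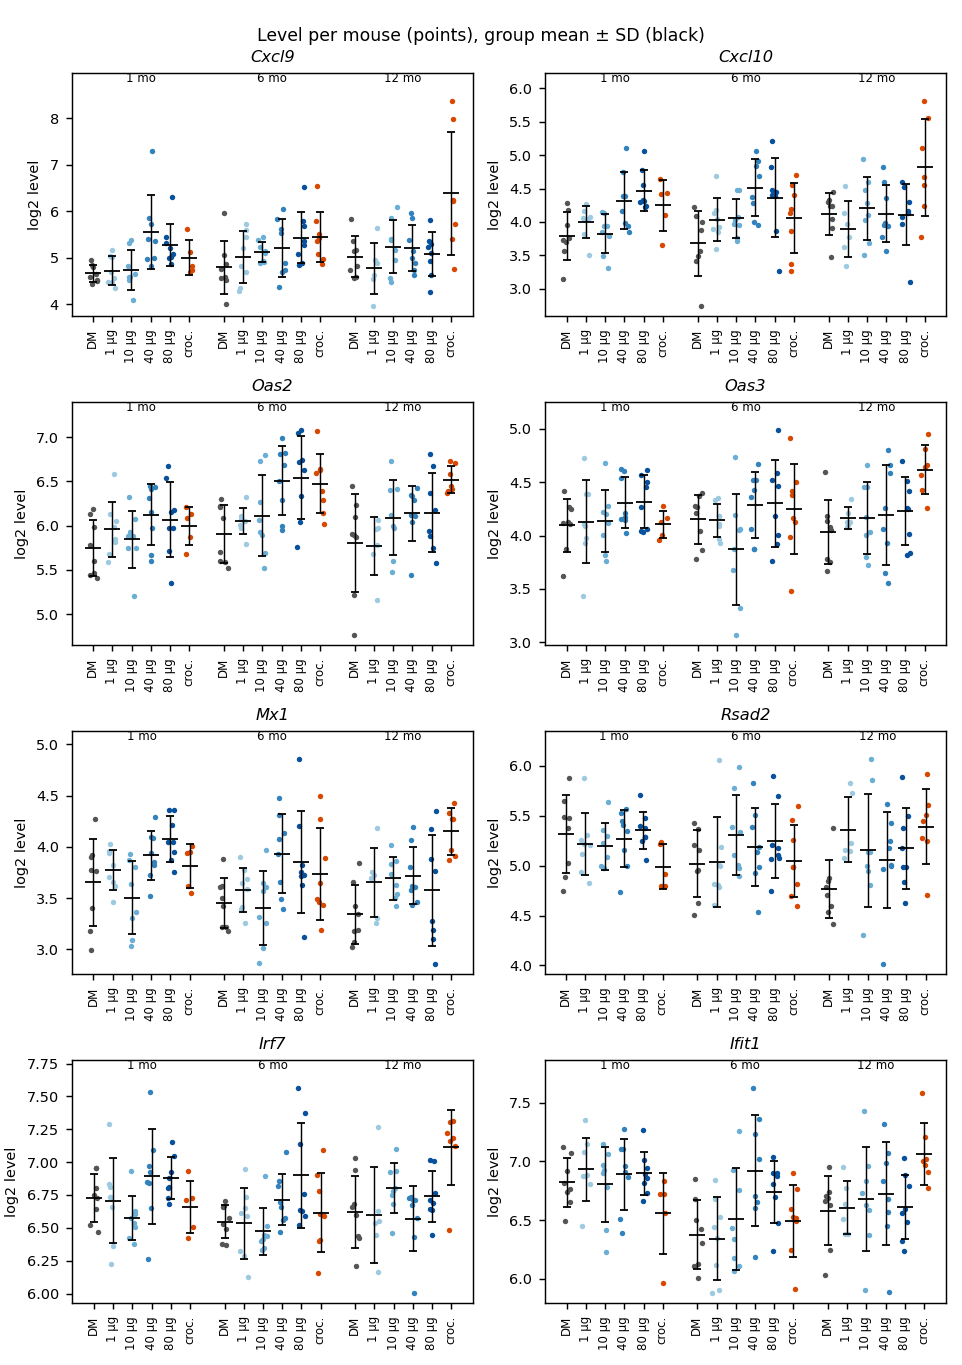
Log2 level of 8 members in each mouse (points) with group mean ± SD (black), by exposure and time. In crocidolite lungs at 12 months Mx1 lies above every DM mouse of that time, while Cxcl9 spreads from 4.76 to 8.36.

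At 1 month after crocidolite the called members were lower: 3 of 36 members were lower and 0 higher (8.33%, where 2.83% of all genes were called lower and 5.76% in either direction). They were the guanylate-binding proteins Gbp7 and Gbp3, GTPases that act on vacuoles holding pathogens, and Ifit2, an RNA-binding antiviral protein. The median of the members was -0.21 (all genes -0.01), and 10 of 36 differences were above 0. At an unadjusted p under 0.05, 14 members were lower and 0 higher. The shares of all genes above are at adjusted p and cannot be set against this count.

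Gbp7 was at 8.27, 8.44, 8.17, 6.84 and 7.46 in the 5 crocidolite mice and ran from 8.60 to 9.21 (median 8.72) in the 8 DM mice. It was lower by 0.94 ± 0.20 (SE), or 1.92-fold, with an adjusted p of 0.00058, and 5 of 5 crocidolite mice were below every DM mouse. Gbp3 was at 5.45, 6.25, 5.83, 5.46 and 5.10 with crocidolite and ran from 5.93 to 6.77 (median 6.23) in DM, a difference of -0.66 ± 0.16 (adjusted p = 0.00391). Ifit2 was at 5.42, 6.04, 5.30, 4.70 and 5.14 with crocidolite and ran from 5.70 to 6.11 (median 5.98) in DM, a difference of -0.62 ± 0.16 (adjusted p = 0.006). In Gbp3 and Ifit2 crocidolite replicate 2 lay within the DM range and the other 4 mice below it. Replicates 4 and 5, whose arrays are among the 10 of lowest correlation, were the lowest mice for Gbp7 and Ifit2.

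Of the gamma-like genes that did not pass, Gbp5 (-0.47 ± 0.19) and the immunoproteasome subunit Psmb9 (-0.26 ± 0.12) lay below DM and Cxcl9 (0.34) and Psmb8 (0.11) above it. Igtp, an immunity-related GTPase, was at 6.28, 6.72, 6.36, 5.90 and 5.90 with crocidolite and from 6.02 to 7.59 (median 6.84) in DM, a difference of -0.70 ± 0.27 (adjusted p = 0.128). Among regulators Stat2 differed most (7.31, 7.31, 7.30, 6.79 and 6.86 against 7.07 to 7.80 in DM; -0.30 ± 0.12, adjusted p = 0.14). Among sensors it was Ifih1, the helicase MDA5 (7.82, 8.04, 7.72, 7.38 and 7.53 against 7.72 to 8.18; -0.26 ± 0.10, adjusted p = 0.136). Crocidolite and DM mice overlapped in Igtp, Stat2 and Ifih1, and replicates 4 and 5 were again the lowest.

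By class, of 6 gamma-like genes 2 were called lower (2.83% of all genes), with a median of -0.36. Of 9 type I-like genes 1 was called lower; their median difference was 0.01, and the mean per mouse averaged -0.07. The gamma-like mean without Cxcl9 was below 0 in 5 of 5 crocidolite mice (-0.74 to -0.13), where DM mice ran from -0.19 to 0.26. The type I-like mean exceeded it in 5 of 5 crocidolite mice, by 0.23 to 0.50, and by 0.17 to 0.42 with Cxcl9 included. The chemokine values lay above DM without passing, with Cxcl9 at 0.34 ± 0.32 (adjusted p = 0.682) and Cxcl10 at 0.46 ± 0.24 (adjusted p = 0.326).

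Outside the module, some targets of both kinds were called lower at 1 month, where 2.83% of all genes were. Of 26 other gamma-like targets 5 were lower, led by the guanylate-binding proteins Gbp4 (-1.02 ± 0.29) and Gbp10 (-0.99 ± 0.28), the immunity-related GTPase Irgm2 (-0.79 ± 0.22) and Gbp9 (-0.75 ± 0.14). The same list held 1 higher gene, Nos2, the inducible nitric oxide synthase (0.59 ± 0.16). The Gbp genes form clusters of close copies, so their values may share signal. Of 24 other type I-like targets 4 were lower, Sp100 (-0.48), Cmpk2 (-0.43), Herc6 (-0.41) and Slfn5 (-0.39). Ifngr1, the ligand-binding chain of the gamma receptor, was lower (-0.28 ± 0.09, adjusted p = 0.0464) and Ifngr2 higher (0.36 ± 0.10, adjusted p = 0.00823). In Ifngr1 the crocidolite mice ran from 8.84 to 9.75 (median 9.55) and overlapped the DM mice (9.42 to 9.82). Calls of genes outside the module were not repeated with arrays or mice left out. Ifng differed by 0.16 ± 0.16 (adjusted p = 0.701), and 0 of 19 interferon genes were called by limma, with 1 at an unadjusted p under 0.05.

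Beside the lower gamma-like genes, 7 of 14 natural killer and T cell genes were lower (median -0.69), led by Gzma (-1.06 ± 0.26) and the natural killer receptor Ncr1 (-1.01 ± 0.19). Their mean ran from 4.46 to 5.05 in crocidolite mice and from 5.12 to 5.56 in DM mice, with no overlap. Endothelial genes were lower in 5 of 8 cases, at 8.96 and 8.99 in replicates 4 and 5 and 9.50 to 9.98 in the others, against 9.74 to 10.0 in DM. Macrophage genes were higher in 9 of 10. Of all genes 2.83% were called lower and 5.76% in either direction. The part of these cells in the lower members was not tested.

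The 1-month calls depended on those 2 mice and on the subset of arrays. Ifit2 was lost without crocidolite replicate 4 (-0.47, adjusted p = 0.115) and Gbp3 without replicate 5 (-0.53, adjusted p = 0.0733), while Gbp7 stayed called with each of the 13 mice left out. Without the 10 arrays of lowest correlation 0 members were called by limma, with Gbp7 at -0.49, Gbp3 at -0.49 and Ifit2 at -0.37. With only the DM and crocidolite groups in the fit Gbp7 alone was called, and with array weights Ifit2 was not (adjusted p = 0.0548). Left without replicate 2 the fit called 7 members lower, and without replicate 3 it called 5. In arrays with and in arrays without the word replacement 0 were called, although Gbp7 was at -1.06 and -0.79 there.

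**Figure D3:**
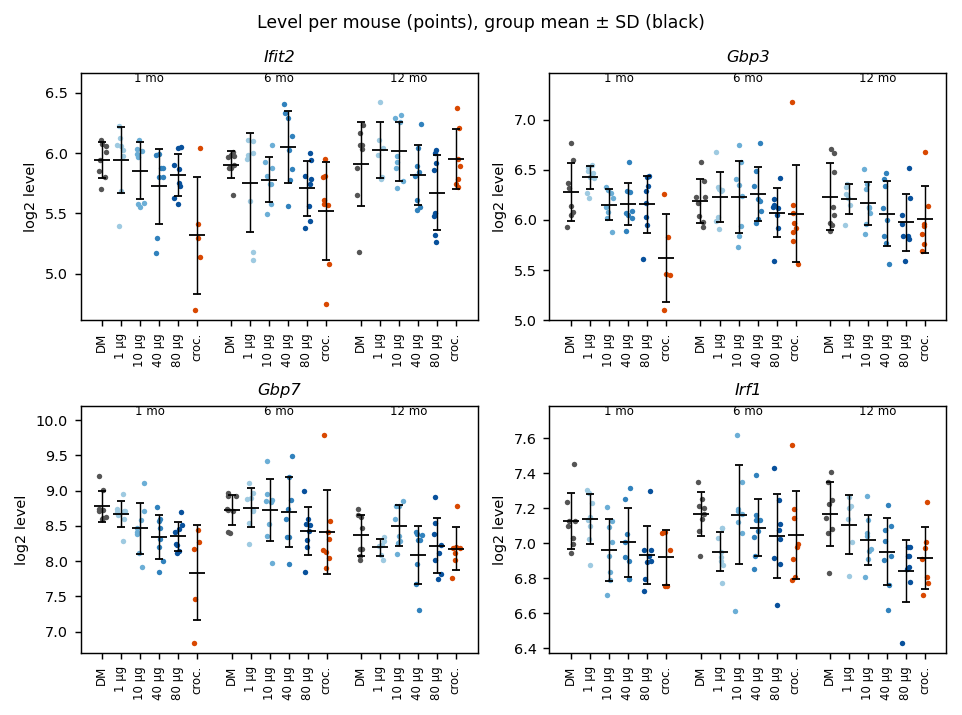
Log2 level of Ifit2, Gbp3, Gbp7 and Irf1 in each mouse (points) with group mean ± SD (black), by exposure and time. With crocidolite at 1 month Gbp7 is below every DM mouse of that time, and its lowest mice are at 6.84 and 7.46.

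At 6 months after crocidolite 0 of 36 members were called by limma, where 3.68% of all genes were, and 2 were higher and 3 lower at an unadjusted p under 0.05. Oas2 ran from 5.53 to 6.30 (median 5.90) in DM and from 6.02 to 7.07 (median 6.49) with crocidolite, a difference of 0.57 ± 0.18 (adjusted p = 0.0582). Cxcl9 lay at or below 5.97 (median 4.67) in DM and ran from 4.87 to 6.54 with crocidolite (0.65 ± 0.28, adjusted p = 0.224), so these mice overlapped in both genes. Irf9, the DNA-binding partner of Stat2, differed by -0.26 ± 0.10 (7.25 to 7.64 in DM, 6.77 to 7.50 with crocidolite), and Zbp1, a sensor of Z-form nucleic acids, by 0.19 ± 0.14 (5.69 to 6.58 and 5.81 to 6.75). Cxcl10, the largest of the other classes, differed by 0.38 ± 0.21 (2.74 to 4.23 and 3.27 to 4.70). Oas2 passed without crocidolite replicate 3 or 4 or DM replicate 1 or 8, and Xaf1, a pro-apoptotic factor that did not pass in the full fit (-0.30 ± 0.10, adjusted p = 0.0637), passed as lower without crocidolite replicate 4 or 6 or DM replicate 6. Crocidolite replicate 6 stood apart in the guanylate-binding proteins, with Gbp7 at 9.79 where the other 7 mice ran from 7.90 to 8.56.

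Whether the crocidolite effect changed with time was tested as an interaction. The same contrast with 80 µg MWCNT called 0 of 36 between any of the times (all genes 0.00902% from 1 to 12 months and 0% otherwise), with 2, 0 and 1 members at an unadjusted p under 0.05 for 12 minus 1, 6 minus 1 and 12 minus 6 months. For crocidolite the difference from DM moved upward between 1 and 12 months in 32 of 36 members, by a median of 0.45 where the median of all genes was 0.02. No member passed: limma called 0 of 36, against 0.0541% of all genes, while 19 members, all upward, reached an unadjusted p under 0.05. The shares at that p were 52.8% of members and 6.52% of all genes. Part of the shift lay in the vehicle lungs, where 8 members were lower and 1 higher at 12 than at 1 month at that p, among them Rsad2 (-0.55), Iigp1 (-0.47) and Oasl2 (-0.30), each without passing the test. For this change in DM no share of all genes at that p is given here. At adjusted p limma called 1.12% of all genes. DM at 12 months had the lowest mean of the 18 groups for Mx1 and Rsad2, and Rsad2 in crocidolite lungs at 12 months (mean 5.39) lay near DM at 1 month (5.32). The smallest adjusted p was 0.184, for Oasl2, an oligoadenylate synthetase-like protein (0.75 ± 0.21). Between 1 and 6 months 0 of 36 were called (3 at an unadjusted p under 0.05, all genes called 0.0271%), and between 6 and 12 months 0 of 36 (9, all genes called 0%). By level, crocidolite at 12 months had the highest mean of the 18 groups for 15 of 36 members, and crocidolite at 1 month the lowest for 11. The same ranking was not made over all genes, so these counts cannot be read as particular to the module. Crocidolite at 1 month is also the smallest group (5 mice), and its replicates 4 and 5 are among the 10 arrays of lowest correlation.

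**Figure D4:**
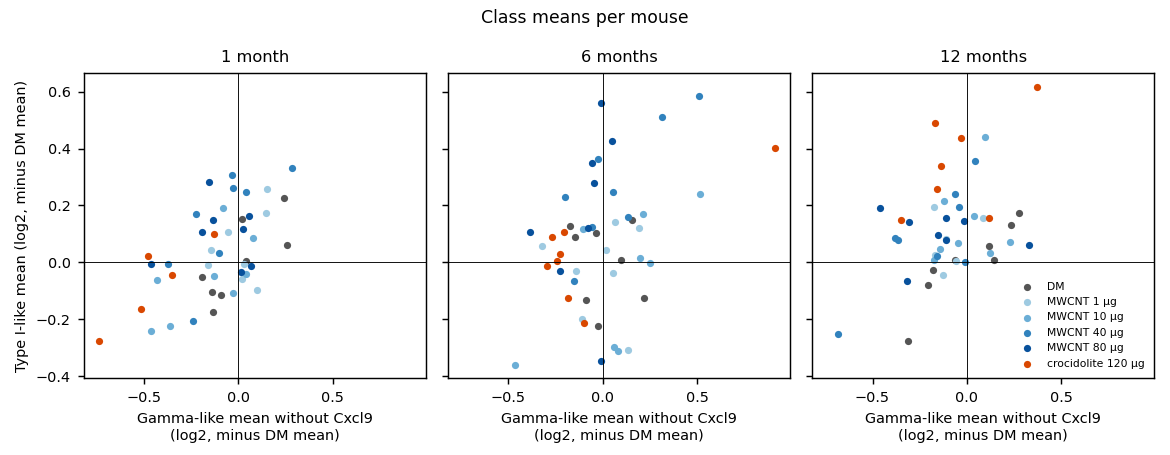
Each point is a mouse: mean of the 9 type I-like genes (vertical) against mean of 5 gamma-like genes without Cxcl9 (horizontal), both in log2 relative to the DM mean of the same time. Crocidolite mice lie left of 0 at 1 month (-0.74 to -0.13) and above 0 on the vertical axis at 12 months (0.15 to 0.62).

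The comparisons with MWCNT share their DM mice with those of crocidolite. With 80 µg MWCNT 0 of 36 members were called against DM by limma at 1, 6 or 12 months, where 1.79%, 0.933% and 0.176% of all genes were. Members at an unadjusted p under 0.05, for which no share of all genes is given here, numbered 6, 6 and 2. Cxcl10 ran from 3.15 to 4.29 in DM and 4.22 to 5.06 with 80 µg at 1 month (0.68 ± 0.21, adjusted p = 0.0762), and Oas2 from 5.53 to 6.30 and 5.76 to 7.08 at 6 months (0.64 ± 0.18, adjusted p = 0.0617). The mice of both groups overlapped. Oas2 at 6 months passed without DM replicate 1 or 80 µg replicate 4 or 7, and Cxcl10 too without 80 µg replicate 7. Outside the module Oas1g was higher at 6 months (1.20 ± 0.31, adjusted p = 0.0234), from 3.17 to 4.40 in DM and 3.71 to 6.26 with 80 µg.

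At 40, 10 and 1 µg 0 of 36 members were called at each time. Of all genes 0.573%, 0.212% and 0.0361% were called at 40 µg at 1, 6 and 12 months, 0.0225%, 0.00451% and 0% at 10 µg, and 0% at 1 µg at each time. At an unadjusted p under 0.05, for which no share of all genes is given here, the members numbered 6, 7 and 3 at 40 µg. They numbered 5, 1 and 3 at 10 µg, and 0, 1 and 1 at 1 µg. With 40 µg at 6 months 30 of 36 differences were above 0, with a median of 0.14 (all genes -0.01), and 9 of 9 type I-like genes were above 0. The largest there was Cxcl10 at 0.83 ± 0.21 (adjusted p = 0.059), from 2.74 to 4.23 in DM and 3.95 to 5.07 with 40 µg.

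A dose trend, the slope of the DM and MWCNT group means on the log2 of dose plus 1, used these doses together. At 1 month 2 of 36 members rose with dose, against 2.56% of all genes rising and 3.03% in either direction. Cxcl9 rose by 0.12 ± 0.04 per unit (adjusted p = 0.0341), with group means of 4.66, 4.72, 4.74, 5.55 and 5.28 at DM, 1, 10, 40 and 80 µg. Cxcl10 rose by 0.09 ± 0.03 (adjusted p = 0.0324), from 3.79 in DM to 4.32 and 4.47 at 40 and 80 µg. Both calls were lost with array order in the model (adjusted p = 0.0536 and 0.0746), where only arrays lacking the word replacement were used (0.297 and 0.647) and without mice high in squamous or muscle genes (0.0647 and 0.0634), and that of Cxcl9 without the 10 arrays of lowest correlation (0.0503). The means at 1 and 10 µg lay close to DM, and in Cxcl9 replicate 2 of the 40 µg group (7.29) and of the 80 µg group (6.32) lay above the rest of their groups.

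At 6 months 3 of 36 members rose with dose (1.18% of all genes rising, 1.34% in either direction). Oas2 rose by 0.10 ± 0.02 (adjusted p = 0.00577), with means of 5.91, 6.05, 6.11, 6.51 and 6.54 from DM to 80 µg. Cxcl10 rose by 0.11 ± 0.03 (adjusted p = 0.0167), with means of 3.68, 4.04, 4.06, 4.51 and 4.36, and Ifit1 by 0.08 ± 0.02 (adjusted p = 0.0206), from 6.38 in DM to 6.92 and 6.74 at 40 and 80 µg. Oas2 passed under each of the 13 alternative settings. In arrays without the word replacement Cxcl10 (adjusted p = 0.217) and Ifit1 (0.241) did not, nor did Ifit1 with only the groups compared in the fit (0.0904) or Cxcl10 without mice high in squamous or muscle genes (0.0551). At 12 months 1 of 36 members fell with dose (0.613% of all genes falling, 1.2% in either direction), the regulator Irf1, by 0.05 ± 0.01 per unit (adjusted p = 0.0412). Irf1 means went from 7.17 in DM through 7.11, 7.02 and 6.95 to 6.84 at 80 µg, and the mice of neighbouring doses overlapped. It did not pass under quantile normalization (0.0907) or median centring of the arrays (0.118), with only the groups compared in the fit (0.0749), with replacement as a covariate (0.0511) or in arrays without (0.146) or with the word (0.809).

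Set directly against 80 µg MWCNT at 12 months, crocidolite had 1 of 36 members higher, Cxcl9, where 0.83% of all genes were higher and 0.978% called in either direction. Cxcl9 ran from 4.26 to 5.81 (median 5.17) with 80 µg and from 4.76 to 8.36 with crocidolite, a difference of 1.31 ± 0.29 (adjusted p = 0.00605), with 4 of 7 crocidolite mice above every 80 µg mouse. The call was lost with only these groups in the fit (0.259), in arrays without (0.0919) or with the word replacement (0.136), and without crocidolite replicate 5 (1.04, adjusted p = 0.0599) or 6 (0.98, adjusted p = 0.0902). Cxcl10 passed too without crocidolite replicate 7, and Mx1 without 80 µg replicate 4 or 7. Of the 36 differences 30 were above 0, with a median of 0.24 (all genes -0.00495), and 15 were higher at an unadjusted p under 0.05. No share of all genes at that p is given here, and the shares above are at adjusted p. At 1 month 0 of 36 were called (0.0902% of all genes; 9 lower at an unadjusted p under 0.05), and without crocidolite replicate 2 Ifit2, Oasl2 and Gbp3 were lower. At 6 months 0 of 36 were called (0.0271% of all genes; 3 lower at an unadjusted p under 0.05).

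In vehicle lungs, between 6 and 12 months 1 of 36 was lower in DM, Stat2 (0.203% of all genes lower, 0.239% in either direction), from 7.26 to 7.70 down to 6.86 to 7.34, a difference of -0.46 ± 0.11 (adjusted p = 0.0323). It did not pass under median centring (0.0812) or with array order in the model (0.0884). At 1 month Stat2 was at 7.07 to 7.80. Between 1 and 6 months and between 1 and 12 months 0 of 36 were called by limma (2 lower, and 8 lower with 1 higher, at an unadjusted p under 0.05), against 0.135% and 1.12% of all genes.

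Within groups the members were on balance weakly and positively correlated from mouse to mouse. With each group's mean removed, the median correlation over the 630 pairs of members across mice was 0.23 by Pearson and 0.22 by Spearman, where the median Pearson value over all pairs of genes was 0.01. The values of a mouse come from the same array, and without the 10 arrays of lowest correlation the median was 0.20. Over all mice the median was 0.32 among gamma-like genes, 0.19 among type I-like genes and 0.19 between the classes. Without those arrays the values were 0.26, 0.19 and 0.16. The tightest pair, Igtp and Tap1, had a Pearson value of 0.70, followed by Gbp5 and the GTPase Iigp1 at 0.69. Oasl2 had the highest median with the other members (0.37), then Zbp1 (0.36) and the immunoproteasome subunit Psmb9 (0.35). Cxcl9 stood apart at 0.06, its closest member being Cxcl10 at 0.41, and the median of Ifit3 was -0.14. The correlations are a description, without a test.

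**Figure D5:**
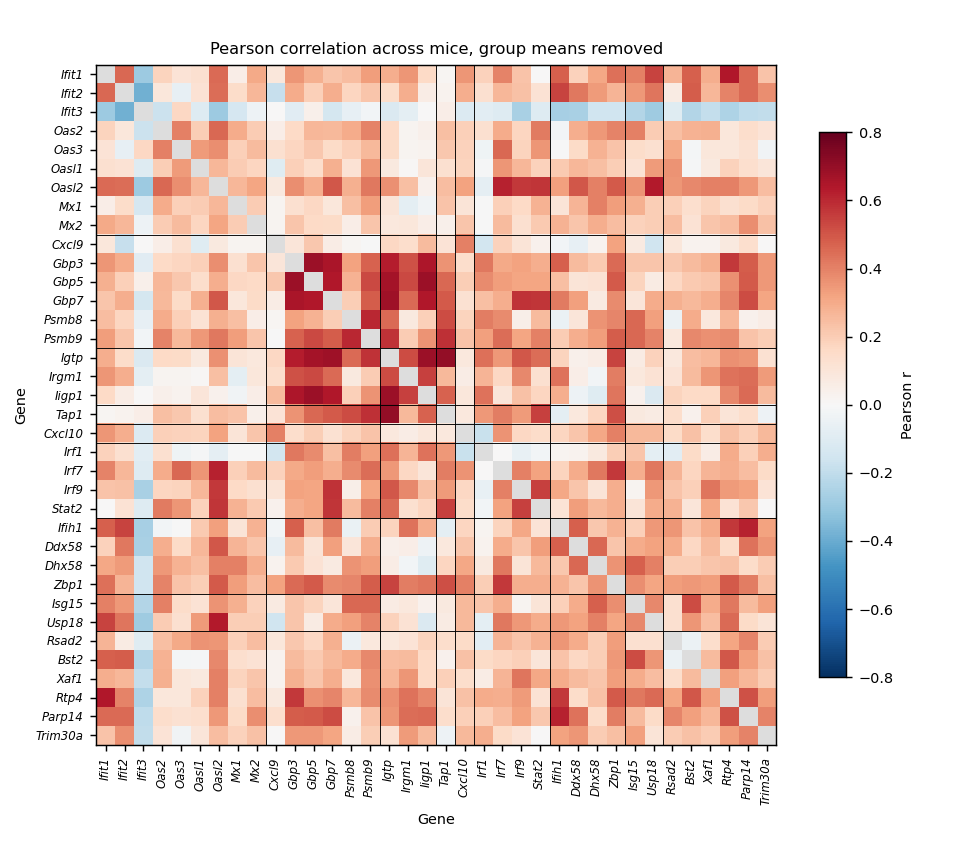
Pearson correlation between the 36 members (rows and columns, by class) across mice after removal of each group's mean; red is positive, blue negative. Pairs among Gbp3, Gbp5, Gbp7, Igtp and Iigp1 are at 0.63 to 0.69, Igtp and Tap1 at 0.70, and the Ifit3 row is mostly blue.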

How the data were processed

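Whole lung RNA was measured on 139 Affymetrix arrays; groups follow the labels for treatment, dose and time, and replicates are separate mice, numbered in order of deposition. Values are log2 intensities as deposited by the authors; per the submitters' processing notes the tools were oligo, RMA and limma, whose versions are not stated there. The 2 arrays of mouse 101 were averaged. Of 41345 features 23521 had a single symbol, 1814 several and 16010 none; the highest-mean feature per gene was kept (22180 genes, 1341 features set aside). limma 3.58.1 (R 4.3.3) was used to fit 1 mean per group, leaving 120 residual degrees of freedom, with empirical Bayes moderation and Benjamini-Hochberg adjustment over all genes, and was tested on simulated data. The number of arrays limits precision. Promoter motifs and figures used Python with pandas and matplotlib 3.10.9.

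Members, gene lists, tests and the rule for names were chosen with earlier results of these data known. Full values are given for members called in any comparison and for the largest crocidolite difference per class; of other interferon and cell-type genes, up to 4 called per list were eligible, plus Ifng, Ifnb1 and the receptors. Alternatives covered scaling, samples fitted, moderation, array quality, the word replacement in titles, feature choice, dim genes, repeat arrays, array order, and leaving mice out; all leave-outs but those of crocidolite mice at 1 month, and the removal of mice high in squamous or muscle genes, were added after seeing the data.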

Additional observations from a re-analysis of the deposited data

Results flagged for a closer look

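In 20 of 234 sets of one gene in one group, covering 13 members, the highest or lowest mouse lay far from the nearest other mouse of its group. Chance alone gives about 1 in 20 such sets. Values are deposited log2 intensities, each followed by the range of the other mice of the group.

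Crocidolite replicate 6 at 6 months was high in 3 genes, with Gbp7 at 9.79 (others 7.90 to 8.56), Gbp3 at 7.18 (5.56 to 6.15) and Stat2 at 7.86 (6.98 to 7.37). Crocidolite replicate 7 at 12 months was low in Irf7, at 6.48 (7.12 to 7.31), and in Stat2, at 6.27 (6.96 to 7.35). Crocidolite replicate 6 at 12 months was high in Gbp7, at 8.78 (7.76 to 8.20).

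Among mice given 40 µg MWCNT, replicate 2 at 1 month was high in Cxcl9, at 7.29 (4.82 to 5.85). At 12 months replicate 1 was low in Irf7, at 6.00 (6.43 to 6.74), and in Rsad2, at 4.01 (4.97 to 5.62), and replicate 5 was low in Oas2, at 5.45 (6.04 to 6.42). Among mice given 80 µg, at 1 month replicate 2 was high in Cxcl9, at 6.32 (4.87 to 5.44), replicate 3 in Irf1, at 7.30 (6.73 to 6.96), and replicate 6 in Stat2, at 7.50 (7.32 to 7.41). At 12 months replicate 7 was low in Cxcl10, at 3.11 (3.98 to 4.60), and replicate 2 in Irf1, at 6.43 (6.78 to 6.98).

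At the lower doses, Irf7 was high in replicate 1 of 10 µg at 1 month, at 6.93 (6.38 to 6.63), and in replicate 4 at 6 months, at 6.89 (6.33 to 6.52). Rsad2 was high in replicate 5 of 1 µg at 1 month, at 5.87 (4.82 to 5.31), and in replicate 8 at 6 months, at 6.06 (4.61 to 5.19). In vehicle lungs Ifit2 was low in replicate 6 at 6 months, at 5.65 (5.87 to 6.01). Replicate 1 of 40 µg and replicate 2 of 80 µg at 12 months are among the 10 arrays of lowest correlation.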

How the results depend on the processing

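No called difference of a named member changed direction under the alternatives run, but class medians close to 0 did. Counts are of the 36 members called. With crocidolite at 12 months (7) the count was 4 with only the groups compared, 1 in arrays without and 1 in arrays with the word replacement, and 5 to 12 with each mouse left out. At 1 month (3) it was 1 with only the groups compared, 0 without the 10 arrays of lowest correlation, 0 and 0 in arrays without and with replacement, 5 with array order, and 2 to 7 with each mouse left out. At 6 months (0) it was 1 under quantile normalization, with only the groups compared, in arrays without replacement and with array order, 2 without the 10 arrays and among genes above the median level, 4 with array weights, and 0 to 2 with mice left out. Oas2 was called higher in each of these alternatives that left no single mouse out.

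With 80 µg MWCNT at 1 month (0) the count was 2 with only the groups compared, and 1 with array weights and in arrays with replacement. At 6 months (0) it was 1 under quantile normalization, array weights, without the 10 arrays, among genes above the median level and with array order, and 0 to 2 with mice left out. At 12 months (0) it was 1 with array order, and 0 to 0 with mice left out there and at 1 month. The dose trend at 1 month (2) gave 4 with array weights, 0 in arrays without replacement and 1, Gbp7 falling, with array order. At 6 months (3) it gave 1 in arrays without replacement. At 12 months (1) it gave 0 under quantile normalization, median centring, only the groups compared, replacement as a covariate, and arrays without or with it. Crocidolite against 80 µg at 12 months (1) gave 0 with only the groups compared and in arrays without or with replacement, and 0 to 2 with mice left out. At 1 month it gave 0 to 3 and at 6 months 0 to 0 with mice left out.

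The type I-like median at 1 month with crocidolite (0.01) was -0.26 among genes above the median level, a filter that drops Mx1, Mx2, Oas3 and Oasl1 from that class, and kept its sign in 9 of 13 alternatives. The gamma-like median there (-0.36) was -0.20 in arrays without replacement and stayed below 0 in 13 of 13. The gamma-like median kept its sign in 9 of 12 at 6 months (-0.07 to 0.02) and 10 of 13 at 12 months (-0.02 to 0.07) with crocidolite, and in 12 of 13 at 1 month with 80 µg (-0.18 to 0.03). The other class medians kept theirs. The causes were not tested, beyond the smaller number of mice in the subsets. Arrays with replacement alone could not be fitted at 6 months or for the trend at 1 month. No paired analysis was possible because the labels give no replicate numbers that the groups share.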
